A study of Mus musculus with 6 samples.

Results

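The membrane-spanning collagens XIII, XVII, XXIII and XXV are encoded by Col13a1, Col17a1, Col23a1 and Col25a1, and these 4 genes of the 17213 in the main count table were taken by symbol, with their levels in every library. The set was chosen on the strong difference of Col13a1 between the groups in these same libraries, so the difference in Col13a1 is given below as a description, and nothing is supported with it. RNA was measured in 3 libraries labelled KO, with the genotype Pth1r(-/-), and 3 labelled Het, with the genotype Pth1r(+/-), in mice aged 8 days. Pth1r encodes the receptor of PTH and of PTHrP, and the series text describes both genotypes as conditional. The cells, labelled as expressing PTHrP, were sorted for the red fluorescent reporter tdTomato from the dental follicle of mandibular molars, a soft tissue envelope of the developing tooth. Mice of both groups had received tamoxifen, at day 3 in the series text and at day 8 in the sample labels. The sources used here do not give the Cre driver, the strain or the number of animals behind a library, so the spread between libraries may be partly technical.

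Membrane-spanning collagens are single-pass proteins with a cytoplasmic start, long in collagen XVII and short in the others, and an extracellular part of triple-helical stretches, so they sit at the cell surface while other collagens are secreted. Their outer parts can be shed, by furin-type proprotein convertases for collagens XIII, XXIII and XXV and by ADAM proteases for collagen XVII. Collagen XIII is found where cells attach to matrix and is needed for the maturation of mouse neuromuscular junctions, and mice that overexpress it gain bone mass. Collagen XVII anchors epithelial cells in hemidesmosomes, and its loss in humans causes skin blistering with enamel defects. Collagen XXIII is known from skin, lung and carcinoma cells, and collagen XXV from neurons, from developing muscle and from amyloid plaques.

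Total counts were 51804736 to 66147200 in the libraries labelled KO and 34019925 to 63787622 in those labelled Het. Het replicate 2 stood apart on the first principal component, which held 38.6% of the variance, and after thinning to the smallest total 14658 of its genes had a count, against 15175 to 15914 for the rest. Counts scaled to the total of each library (CPM, after TMM scaling of library sizes) are used to compare libraries. Pth1r itself went against the labels, at 961, 608 and 472 CPM under the KO label and 371, 286 and 346 CPM under the Het label (log2 fold change 1.02, standard error 0.28). Counts over a whole gene cannot resolve a deleted part, so every direction below is that of the libraries labelled KO against those labelled Het. Pthlh, the gene of PTHrP, was present in every library at 298 to 350 CPM in those labelled KO and 260 to 344 CPM under the Het label. Genes of enamel-forming epithelium were abundant too, with the ameloblastin gene Ambn at 2120 to 6067 CPM under the KO label and 1493 to 3894 CPM under the Het label. Such bulk values cannot tell fewer cells of a type from less RNA per cell.

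The promoter windows of Col13a1, whose groups did not overlap, and of Col23a1, the most abundant member, whose groups overlapped, are printed so that their sequences can be read side by side. Each runs from 250 bases before to 50 bases after the RefSeq start site (GRCm38.p6), 5′ to 3′ on the gene's own strand. Capitals mark the TATA-box core TATAAA or the GC-box core GGGCGG, on either strand. Col13a1 is on the minus strand at chr10:61979059-61979358, and Col23a1 is on the plus strand at chr11:51289670-51289969.
Col13a1 promoter: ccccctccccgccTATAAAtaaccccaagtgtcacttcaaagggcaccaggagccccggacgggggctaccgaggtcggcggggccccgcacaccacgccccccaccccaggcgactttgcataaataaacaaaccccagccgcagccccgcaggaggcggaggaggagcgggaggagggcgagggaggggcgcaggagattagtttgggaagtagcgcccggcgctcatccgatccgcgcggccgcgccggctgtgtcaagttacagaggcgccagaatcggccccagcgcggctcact
Col23a1 promoter: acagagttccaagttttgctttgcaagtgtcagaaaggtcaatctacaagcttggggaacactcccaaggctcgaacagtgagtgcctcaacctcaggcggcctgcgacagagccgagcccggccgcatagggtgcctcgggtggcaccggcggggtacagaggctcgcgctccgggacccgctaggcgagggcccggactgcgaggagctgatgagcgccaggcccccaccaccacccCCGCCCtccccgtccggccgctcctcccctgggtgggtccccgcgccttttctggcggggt

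Both windows are rich in G and C, at 68.0% for Col13a1 and 67.7% for Col23a1, against a median of 52.7% over 32841 promoter windows, and hold 29 and 24 CpG pairs against a median of 7. The Col17a1 window differed in kind, at 46.3% G and C with 5 CpG pairs, and the Col25a1 window had 60.0% and 23 pairs. The RefSeq start site behind the Col25a1 window lies 49344 bases inside the GENCODE gene, and 0 of its 6 GENCODE transcripts hold the last 30 bases of the window, so the Col25a1 values describe the RefSeq site only. TATAAA occurred in the Col13a1 window 237 bases before the start site, in the Col17a1 window 140 and 91 bases before it, and in 13.6% of all windows. GGGCGG occurred once in the Col23a1 window, 11 bases before the start site, and at 2 places in the Col25a1 window, while 35.7% of all windows hold it. The cAMP response element TGACGTCA, searched because the receptor signals through cAMP, and its shorter core TGACG were in none of the 4 windows. They were in 1.79% and 20.8% of all windows, each TGACGTCA also counting as a TGACG. These matches describe letters in the windows and show no binding.

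Gene positions are those of GENCODE M21 on mm10. Col13a1 (ENSMUSG00000058806.14, chromosome 10, 61838236 to 61979108, minus strand, 44 merged exons) had 3498, 1442 and 1347 counts in KO replicates 0, 1 and 2 and 270, 170 and 104 counts in Het replicates 0, 1 and 2. Scaled to library size these were 57.4, 23.7 and 25.6 CPM under the KO label and 4.34, 4.73 and 2.92 CPM under the Het label. The groups did not overlap, and the lowest library labelled KO was 5.01 times the highest labelled Het. The fitted difference was 8.89-fold, a log2 fold change of 3.15 (standard error 0.42), which ranked 3 among 11216 genes whose log2 CPM averaged at least 2. The libraries labelled KO were uneven, since replicate 0 was 2.42 times replicate 1, while the highest library labelled Het was 1.62 times the lowest. Without KO replicate 0 the log2 fold change was 2.64, and without Het replicate 2 it was 2.97.

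Of the 4 members, 0 passed edgeR's quasi-likelihood test at a p of 0.05 after Benjamini-Hochberg adjustment, as did 0% of the 14632 genes tested. At an unadjusted p under 0.05 it was 1 of 4, where 4.29% of all genes lay, DESeq2 called 1 of 4, where it called 0.509% of 17084 genes in either direction and 0.386% as higher, and limma-voom called 0 of 4. The CPM values did not overlap between the groups for 1 of 4 members, against 10.7% of genes tested. The member in each of these counts was Col13a1, for which the set was chosen on this contrast, so the counts were fixed by that choice and are no test of it.

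**Figure D1:**
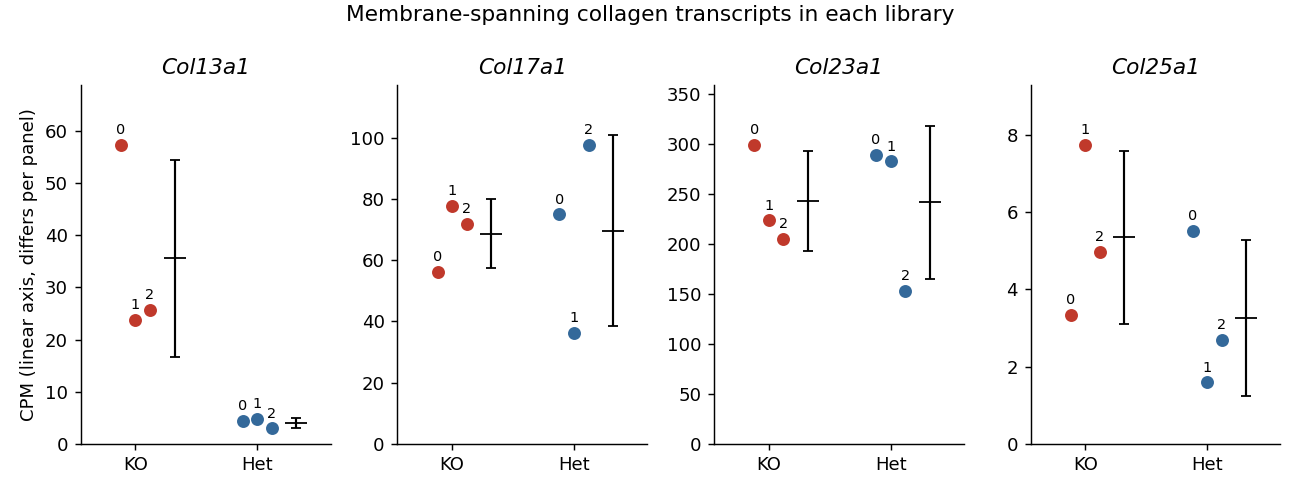
CPM of the 4 membrane-spanning collagen genes in each library (points, numbered by replicate), libraries labelled KO left of those labelled Het, with mean and SD (black bars, n = 3); the linear axis starts at 0 and differs between panels. The Col13a1 points labelled KO (23.7 to 57.4 CPM) lie above all those labelled Het (2.92 to 4.73 CPM), while the points of the other 3 genes overlap.

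Col23a1 (ENSMUSG00000063564.13, chromosome 11, 51289920 to 51583918, plus strand, 30 merged exons) was the most abundant member, at 299, 223 and 205 CPM under the KO label and 289, 282 and 153 CPM under the Het label. The means were 243 ± 49.98 CPM under the KO label and 242 ± 76.5 CPM under the Het label (SD, n = 3 each). The groups overlapped, the lowest value was that of Het replicate 2, and the log2 fold change was 0.01 (standard error 0.28). It was -0.23 without Het replicate 2.

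Col17a1 (ENSMUSG00000025064.15, chromosome 19, 47646344 to 47692094, minus strand, 54 merged exons) was at 56.1, 77.9 and 72.0 CPM under the KO label and 75.0, 36.1 and 97.8 CPM under the Het label. The libraries labelled Het held both the highest and the lowest value. Their SD was 31.2 CPM around a mean of 69.6 CPM, against an SD of 11.3 CPM around 68.7 CPM in the libraries labelled KO. The log2 fold change was -0.02 (standard error 0.34), and its sign depended on single libraries, at 0.32 without Het replicate 2 and -0.33 without Het replicate 1.

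Col25a1 (ENSMUSG00000058897.17, chromosome 3, 130131501 to 130599877, plus strand, 44 merged exons) was the scarcest member, with 203, 472 and 261 counts in the libraries labelled KO and 343, 57 and 96 counts in those labelled Het. This was 3.33, 7.76 and 4.97 CPM under the KO label and 5.52, 1.59 and 2.70 CPM under the Het label. The groups overlapped, because Het replicate 0 lay above KO replicates 0 and 2. The log2 fold change was 0.71 (standard error 0.63), and it was 1.33 without Het replicate 0. Leaving out KO replicate 1 gave 0.34.

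Levels of different genes were compared on the FPKM scale, the deposited fragment values divided by transcript length and library depth. Col23a1 was highest in every library, at 50.5, 35.8 and 35.7 FPKM in the libraries labelled KO and 49.7, 45.7 and 26.2 FPKM in those labelled Het. Col17a1 had 9.76, 12.9 and 16.1 FPKM with the KO label, and with the Het label it came next after Col23a1 at 13.5, 6.05 and 21.5 FPKM. Its distance to Col23a1 varied, and in Het replicate 2 the Col23a1 level was only 1.21 times that of Col17a1. FPKM per count, relative to the median gene of each library, also varied with the replicate number and differently by gene. In Het replicate 2 it was 0.34 above its mean on the log2 scale for Col17a1 and 0.13 above it for Col23a1. The FPKM ratios and shares given here carry that variation.

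Col13a1 was at 21.1, 7.52 and 12.7 FPKM in the libraries labelled KO and at 1.66, 1.51 and 1.44 FPKM in those labelled Het. In the libraries labelled KO its level overlapped that of Col17a1, so these neighbours did not differ beyond their spread, while in each library labelled Het Col17a1 was 4.01 to 15.0 times Col13a1. Col25a1 was lowest in every library, at 0.467 to 1.08 FPKM in those labelled KO and 0.227 to 0.779 FPKM in those labelled Het. Col13a1 made up 19.5% ± 6.35 of the summed FPKM of the 4 genes in the libraries labelled KO and 2.76% ± 0.196 in those labelled Het, and Col23a1 59.7% ± 4.11 with the KO label and 71.4% ± 16.7 with the Het label (SD, n = 3 each).

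**Figure D2:**
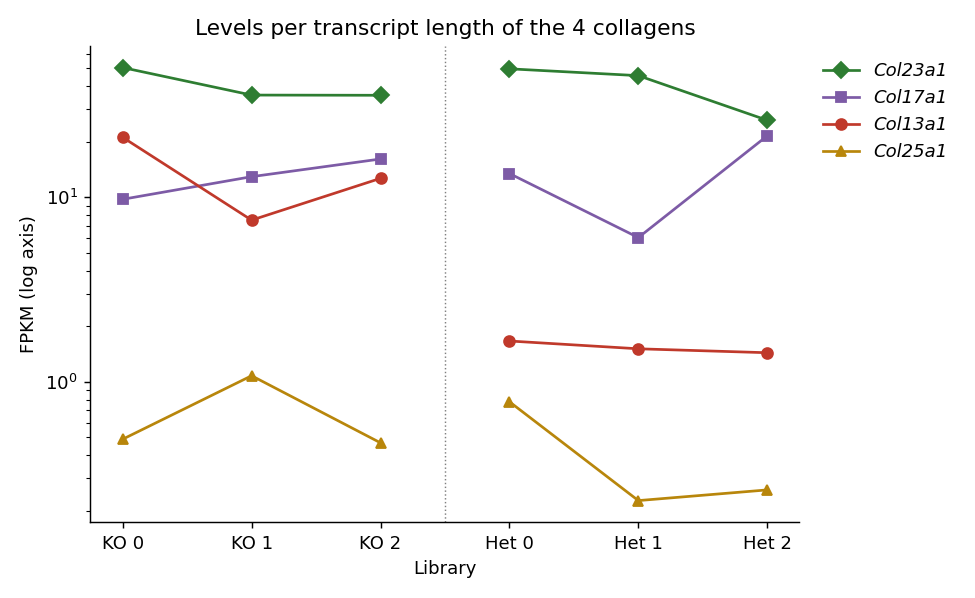
FPKM (log axis) of the 4 genes in each library, libraries labelled KO left of the dotted line and those labelled Het right of it; lines only join the values of 1 gene within a group. Col23a1 is on top and Col25a1 at the bottom in all 6 libraries, and Col13a1 lies among the Col17a1 values only in the libraries labelled KO, at 7.52 to 21.1 FPKM.

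Receptors, ligands and processing enzymes of these collagens were followed as 7 lists of 47 genes, of which 44 were tested. In edgeR 0 of the 44 passed over all genes, 3 had an unadjusted p under 0.05 (4.29% of all genes), and DESeq2 called 1, where it called 0.509% of all genes in either direction. Of the 44, 27 had higher and 17 lower fitted values in the libraries labelled KO, and the median log2 fold change was 0.06, against -0.01 over all genes. Groups did not overlap for 3 of them, 2 higher (5.84% of all genes) and 1 lower (4.83%), a share near that of all genes.

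Among 7 collagen receptor genes, 4 had higher and 3 lower fitted values, and the median log2 fold change was 0.34. The gene that DESeq2 called was Itga10, a collagen-binding integrin chain known from cartilage. It was at 9.23, 10.9 and 6.34 CPM under the KO label and 1.74, 3.12 and 3.23 CPM under the Het label, without overlap. Its log2 fold change was 1.71 (standard error 0.47), with an adjusted p of 0.0493 in DESeq2 and 0.757 in edgeR.

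Itga1, whose product pairs with that of Itgb1 in an integrin known to bind collagen XIII, was at 4.74, 6.57 and 7.69 CPM under the KO label and 16.5, 15.1 and 6.66 CPM under the Het label. Het replicate 2 overlapped the libraries labelled KO, and the gene did not pass (log2 fold change -1.01, edgeR adjusted p = 0.976). Itgb1 was at 1084 ± 121 CPM under the KO label and 1126 ± 154 CPM under the Het label (SD, n = 3 each). Itga2, a chain of the integrin known to bind collagen XXIII, was at 3.67 to 8.00 CPM under the KO label and 3.88 to 5.002 CPM under the Het label.

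Fn1, Nid1, Nid2 and Hspg2 were listed for binding of collagen XIII in vitro, which was not checked here for each product. These 4 genes had 2 higher and 2 lower fitted values around a median of 0.00042 on the log2 scale. Fn1, which encodes fibronectin, was at 134, 166 and 115 CPM under the KO label and 177, 169 and 200 CPM under the Het label. These did not overlap, but by a narrow margin, and the gene did not pass (log2 fold change -0.40, edgeR adjusted p = 0.976). The nidogen gene Nid2 was at 96.3 ± 34.4 CPM under the KO label and 94.8 ± 24.6 CPM under the Het label, and the perlecan gene Hspg2 at 48.5 ± 28.2 CPM in KO and 34.2 ± 11.9 CPM in Het libraries (SD, n = 3 each).

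Of 8 neuromuscular junction genes 7 were tested, with 4 higher and 3 lower fitted values and a median log2 fold change of 0.02. The junction organiser Agrn was at 105 to 120 CPM under the KO label and 101 to 126 CPM under the Het label, and its receptor Lrp4 at 15.6 to 40.7 CPM in KO and 22.9 to 36.2 CPM in Het libraries. Muscle-restricted members were near the floor. Chrna1, a subunit of the muscle acetylcholine receptor, was at 0.438 to 0.525 CPM under the KO label and 0.112 to 0.891 CPM under the Het label, and Musk, the receptor kinase of the junction, did not pass the filter on low counts.

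The 10 hemidesmosome genes, partners of collagen XVII, had 4 higher and 6 lower fitted values, and the median log2 fold change was -0.07. Itgb4, the integrin chain that links to collagen XVII, was at 42.1, 59.6 and 54.3 CPM under the KO label and 63.1, 36.4 and 46.6 CPM under the Het label. As with Col17a1, Het replicate 1 was the lowest of all libraries, while the highest was Het replicate 0. The basal keratin genes Krt5 and Krt14 were at 256 to 625 and 202 to 475 CPM under the KO label and at 364 to 624 and 259 to 575 CPM under the Het label.

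The collagen XXV partners were the receptor phosphatase genes Ptprs, Ptprd and Ptprf and the amyloid precursor gene App, with 3 higher and 1 lower fitted value. Ptprs was at 212 to 371 CPM under the KO label and 260 to 315 CPM under the Het label, and Ptprd at 130 to 233 CPM in KO and 126 to 255 CPM in Het libraries. App was at 330 ± 61.1 CPM under the KO label and 395 ± 73.1 CPM under the Het label (SD, n = 3 each), and the groups overlapped for all 4.

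Of 7 convertase and ADAM protease genes, 6 had higher fitted values and 1 lower, the median log2 fold change was 0.13, and 0 passed the threshold. Furin was at 233, 185 and 160 CPM under the KO label and 165, 139 and 53.0 CPM under the Het label, and the related convertase gene Pcsk6 at 317, 190 and 123 CPM in KO and 158, 132 and 40.3 CPM in Het libraries. For both, Het replicate 2 was far below the rest and the groups overlapped. The Furin log2 fold change of 0.70 was 0.35 without Het replicate 2, and that of Pcsk6, 0.93, was 0.54 without Het replicate 2 and 0.53 without KO replicate 0. Without Het replicate 0 they were 0.99 and 1.27.

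Other membrane proteins with a collagenous stretch had 5 of 7 genes tested, 4 with higher and 1 with lower fitted values. The scavenger receptor gene Colec12 was at 817, 746 and 628 CPM under the KO label and 561, 509 and 535 CPM under the Het label. The groups did not overlap, but it did not pass (log2 fold change 0.45, edgeR adjusted p = 0.976). Scara5, a ferritin receptor, was at 196 ± 53.1 CPM under the KO label and 195 ± 54.1 CPM under the Het label (SD, n = 3 each). Eda, the signalling protein of ectodermal organs, was at 6.49 to 14.4 CPM under the KO label and 5.79 to 11.8 CPM under the Het label.

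**Figure D3:**
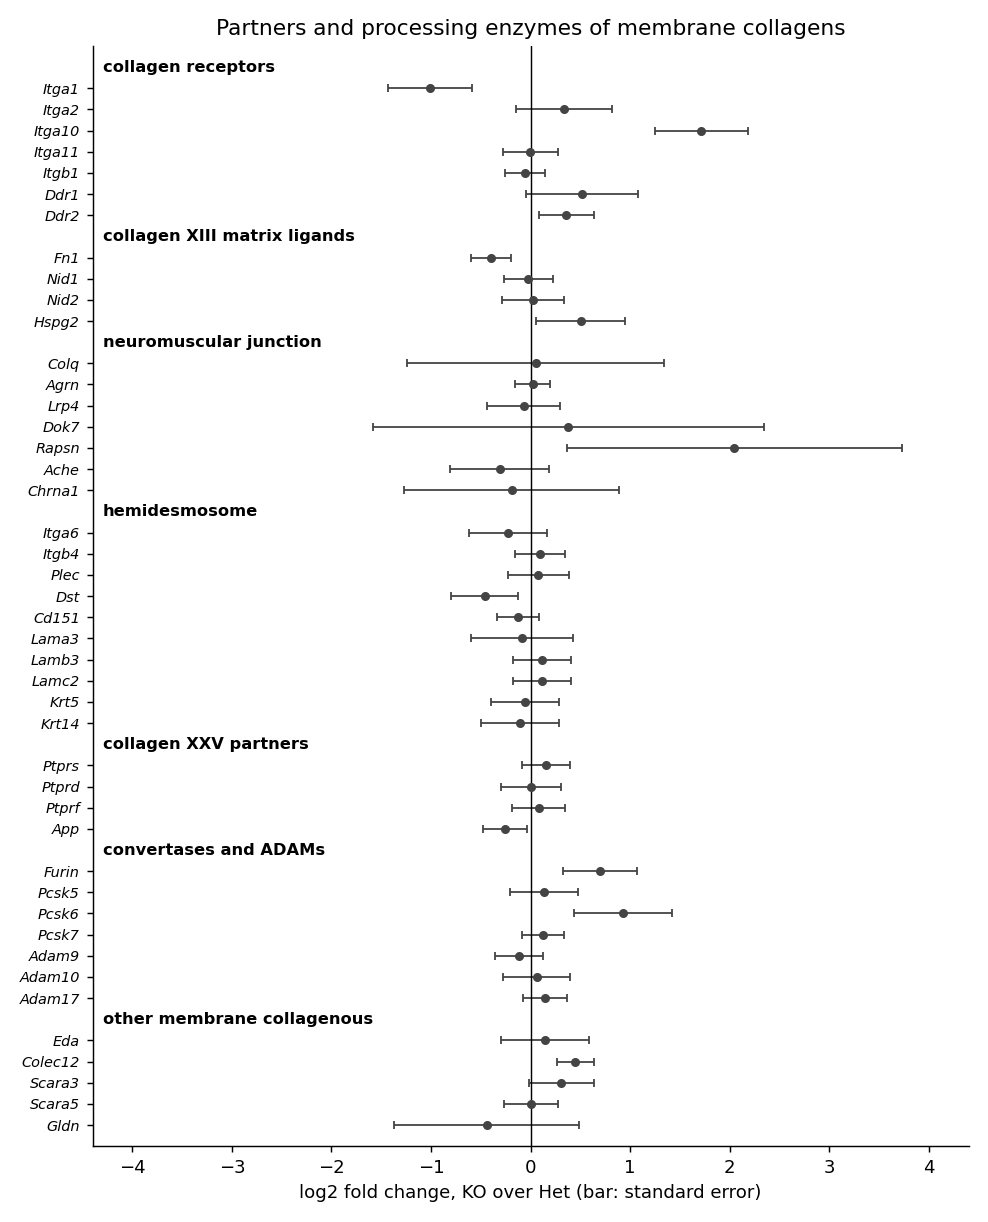
Fitted log2 fold change, KO over Het (points), with standard error (bars), for the 44 tested genes of the 7 lists of receptors, ligands and enzymes. Rapsn lies farthest to the right, at 2.05 with a long bar, followed by Itga10 at 1.71.

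Col13a1 was set among the 39 collagen genes tested, 21 of which had higher and 18 lower fitted values in the libraries labelled KO. Of the 35 that are not membrane-spanning, 18 had higher and 17 lower fitted values, and the median log2 fold change was 0.06. Of these 35, 0 passed edgeR, 5 had an unadjusted p under 0.05 (4.29% of all genes), and DESeq2 called 1 (0.509% of all genes), Col2a1, the main fibrillar collagen of cartilage (12.1 to 34.3 CPM under the KO label and 4.10 to 8.89 CPM under the Het label). Groups did not overlap for 7 of the 35 (10.7% of all genes), 4 higher (5.84%) and 3 lower (4.83%). By fitted log2 fold change Col13a1 was second to Col4a4, a basement membrane chain at 0.670 ± 0.145 CPM under the KO label and 0.0254 ± 0.0242 CPM under the Het label (SD, n = 3 each), whose values of so few counts carry a standard error of 1.34.

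**Figure D4:**
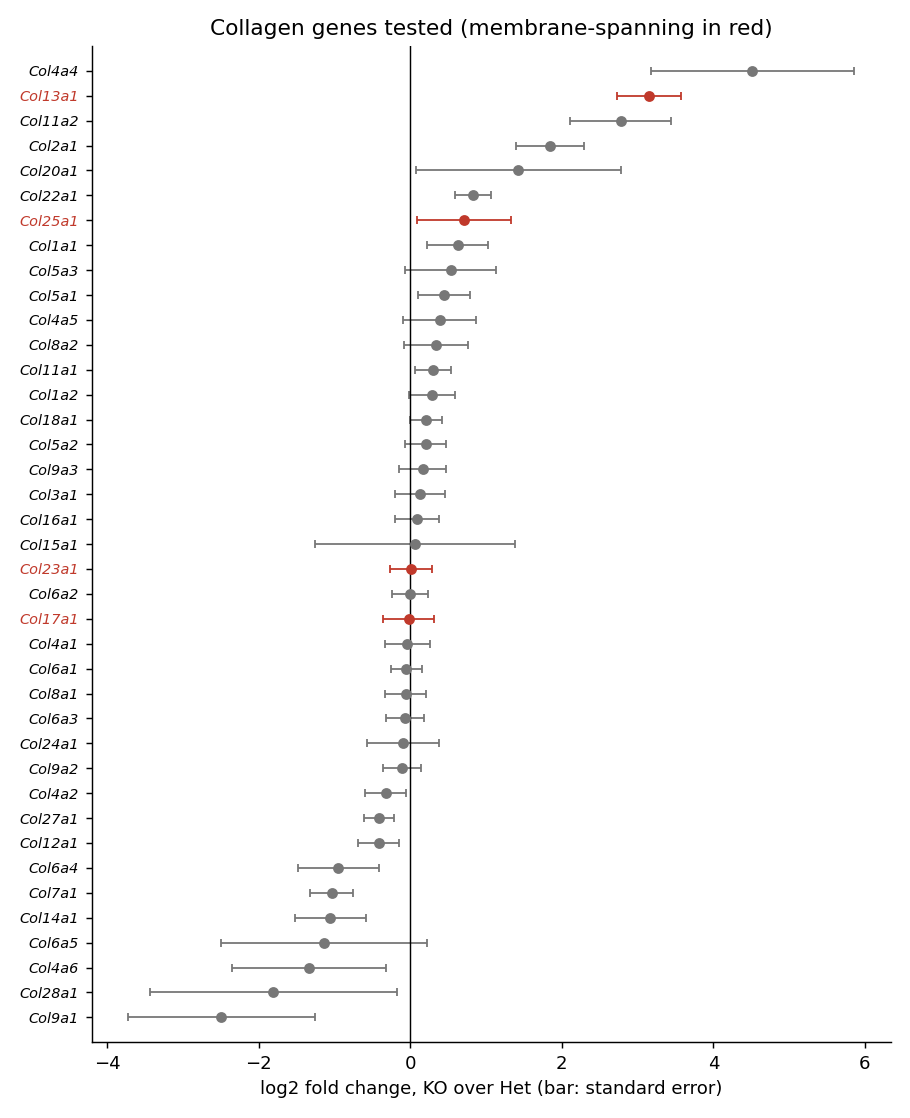
Fitted log2 fold change, KO over Het, with standard error for the 39 collagen genes tested, sorted; membrane-spanning members in red. Col13a1 is at 3.15 near the top, and Col23a1 and Col17a1 are at 0.01 and -0.02 in the middle.

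The likeness of profiles was measured as the root-mean-square difference of log2 CPM, after centring each gene on its mean over the 6 libraries, among genes whose log2 CPM averaged at least 2. Closest to Col13a1, whose own profile deviates from its mean by 1.59 in the same measure, were Cdo1, Loxl4, Col11a2, Ptgis and Slc8a3, at differences of 0.62 to 0.75. A gene so close to Col13a1 has to differ between the groups too, so their values are a description. Cdo1, an enzyme of cysteine breakdown, was at 138, 76.0 and 64.8 CPM under the KO label and 32.8, 28.7 and 9.97 CPM under the Het label. Col11a2, a chain of cartilage-type collagen XI, was at 223, 89.5 and 74.3 CPM under the KO label and 38.5, 8.05 and 9.58 CPM under the Het label.

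In both genes KO replicate 0 was the highest library, as in Col13a1. The lysyl oxidase family gene Loxl4 was at 56.3 ± 25.9 CPM under the KO label and 11.4 ± 7.20 CPM under the Het label, the prostacyclin synthase gene Ptgis at 44.8 ± 20.7 CPM in KO and 13.1 ± 2.71 CPM in Het libraries, and the sodium-calcium exchanger gene Slc8a3 at 70.8 ± 35.5 CPM in KO and 20.4 ± 14.3 CPM in Het libraries (SD, n = 3 each). In Loxl4, Ptgis and Slc8a3 too, KO replicate 0 was the highest of all libraries. Col23a1 was matched most closely by B3gnt9-ps, Bbc3 and Tpm1, at differences of 0.05 to 0.08, and Col17a1 by Lix1l, Klraq1 and 1110012J17Rik, at 0.09 to 0.11. Col25a1 was matched by Ccdc57, Fam185a and Strn, at 0.23 to 0.27.

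**Figure D5:**
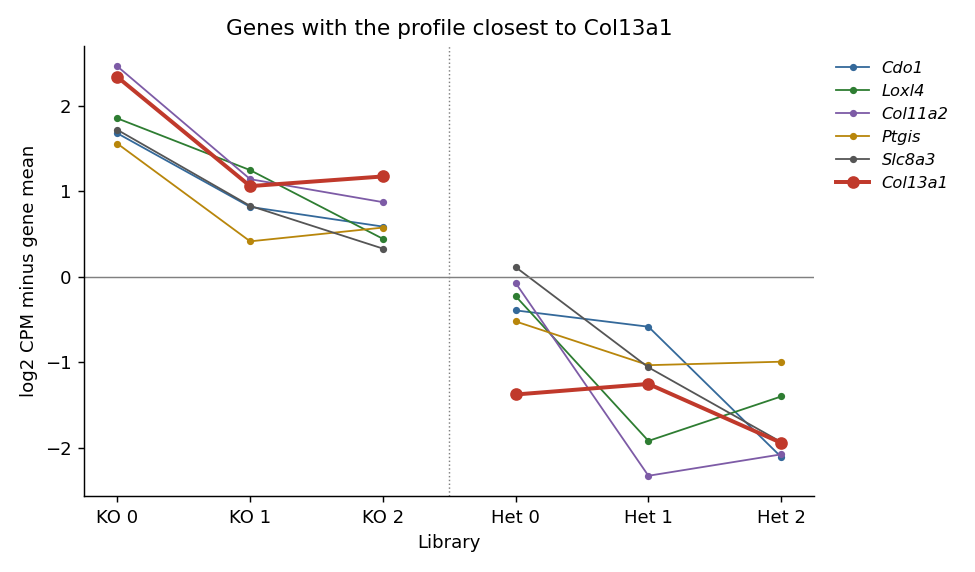
log2 CPM of Col13a1 (thick red) and of the 5 genes closest to it, each centred on its mean over the 6 libraries, with libraries labelled KO left of the dotted line and those labelled Het right of it; lines only join the values of 1 gene. All 6 genes are highest in KO replicate 0, and all their points labelled KO lie above those labelled Het.

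Marker genes of other cells were summed beside these results. The osteoblast list, 10 of whose 11 genes were tested, had 10 higher fitted values (median log2 fold change 0.69) and summed to 13240 to 21682 CPM under the KO label and 5219 to 12274 CPM under the Het label. DESeq2 called 2 of the 10, Spp1 and Dmp1 (0.509% of all genes), and edgeR called 0. Groups did not overlap for the same 2, higher under the KO label (5.84% of all genes). KO replicate 0, highest for Col13a1, was the highest of its group for 7 of the 10. Het replicate 2, lowest for Col13a1, was the lowest of its group for 5 of the 10, among them Sp7, Alpl and Ifitm5, and the highest for 2. Het replicate 1, the highest of its group for Col13a1, was the highest for 2 of the 10 and the lowest for 4, while Het replicate 0 was the highest for 6. KO replicate 1, the lowest of its group for Col13a1, was the lowest for 5 and the highest for 3. The share of all genes with a given library as the extreme was not computed. Such counts, here and for the lists below, are therefore a description only. The sums are mostly those of the bone sialoprotein gene Ibsp, at 16424, 9714 and 12520 CPM in KO and 4072, 3112 and 10458 CPM in Het libraries. Mepe was at 0 in 5 of 6 libraries. The chondrocyte list summed to 106 to 230 CPM under the KO label and 132 to 262 CPM under the Het label, mostly Sox9, with 3 higher and 2 lower fitted values among the 5 genes tested. Of these 5, Col2a1 was higher without overlap (5.84% of all genes) and Col9a1 lower without overlap (4.83%). DESeq2 called 1 of the 5, Col2a1 (0.509% of all genes), and edgeR called 0. Col9a1 was at 0.0190 to 1.03 CPM in KO and 1.84 to 7.86 CPM in Het libraries, and Acan at 2.05 to 3.38 CPM in KO and 0 to 5.53 CPM in Het libraries. The part of these cells in the Col13a1 difference was not tested.

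The dental epithelium list, which bears on Col17a1, had 5 higher and 5 lower fitted values among 10 genes and summed to 5308 to 10986 CPM under the KO label and 5379 to 8591 CPM under the Het label. Het replicate 1, lowest for Col17a1, was the lowest of its group for 2 of the 10, Odam and Trp63, and Het replicate 2, highest for Col17a1, was the highest of its group for 1, Odam. Ambn and Amelx make up most of each sum. The skeletal muscle list summed to 2.48 to 2.83 CPM under the KO label and 3.25 to 9.49 CPM under the Het label. Its markers Acta1, at 0 to 0.0329 CPM, and Ckm, at 0 to 0.476 CPM over all libraries, were not tested. The 2 genes tested had lower fitted values, and 0 were called. Mylpf was at 1.002 to 1.66 CPM in KO and 2.56 to 6.21 CPM in Het libraries, without overlap (4.83% of all genes are lower so). The Tnnt3 groups overlapped. The Schwann cell and neuron list, which bears on Col25a1, summed to 77.8 to 108 CPM under the KO label and 36.4 to 106 CPM under the Het label, with Sox10 at 0 in 5 of 6 libraries. Its neuronal tubulin gene Tubb3 was at 67.9, 58.1 and 69.7 CPM in KO and 79.3, 49.4 and 5.70 CPM in Het libraries.

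The endothelial list had 2 higher and 4 lower fitted values and summed to 13.8 to 20.3 CPM under the KO label and 16.3 to 44.6 CPM under the Het label. Groups did not overlap for 2 of its 6 genes, Pecam1 and Kdr, each lower under the KO label (4.83% of all genes), and 0 were called. The macrophage list had 7 of 7 higher fitted values, but 0 were called and the groups overlapped for all 7. It summed to 5.79, 32.1 and 32.4 CPM in KO replicates 0, 1 and 2 and 2.85, 11.9 and 17.7 CPM in Het replicates 0, 1 and 2. KO replicate 0 was the lowest of its group for 7 of the 7. The odontoblast list summed to 186 to 611 CPM in KO and 85.3 to 156 CPM in Het libraries, with Dmp1, which the osteoblast list also holds, at 138 to 536 CPM in KO and 29.0 to 84.8 CPM in Het libraries, while the dentin gene Dspp was at 16.9 to 18.1 CPM under the KO label and 10.2 to 24.9 CPM under the Het label. Of the 9 follicle and ligament genes, 2 had higher and 7 lower fitted values, with sums of 6895 to 7941 CPM under the KO label and 8948 to 10809 CPM under the Het label. Groups did not overlap for 3 of the 9, Aspn, Igfbp5 and Tnn, all lower under the KO label (4.83% of all genes). DESeq2 called 1 of the 9 (0.509% of all genes), and edgeR called 0. The called gene was Aspn, at 66.8, 44.8 and 47.1 CPM in KO and 92.7, 112 and 161 CPM in Het libraries. Its adjusted p was 0.0088 in DESeq2 and 0.634 in edgeR. The tendon regulator Scx was low in all libraries, at 0.969 to 1.46 CPM in those labelled KO and 0.702 to 2.23 CPM under the Het label. Other tendon and ligament genes of the list were not low. Tnmd was at 276 to 311 CPM in KO and 230 to 349 CPM in Het libraries, and Mkx at 174 to 193 CPM in KO and 129 to 226 CPM in Het libraries.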

How the data were processed

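RNA of sorted tdTomato-positive cells was purified with a PicoPure kit, amplified as cDNA (SMART-Seq, low input) and made into libraries (Nextera XT), per the labels' protocols. Reads amplified without molecular identifiers are not independent molecules, so counting error understates the total error. The submitters' processing notes name the build mm10 and, without their roles, TopHat2 2.0.13 and Bowtie2 2.2.1 next to DESeq2, HTSeq, Cuffdiff, Cufflinks and FastQC. Nothing says whether counting used strand. The main table holds whole-number counts per gene, as the authors deposited them. A second deposited table holds estimated counts, which were rounded, and in it the 4 members have the same values. FPKM, scaled for length and depth by the authors, stand in another deposited table. No other annotated gene shares exonic bases with the 4 members in GENCODE M21, whose assembly is that of mm10. By that annotation, uncertain strand would not mix their reads with those of an annotated neighbour. The annotation used for the deposited counts was not compared with it. Pth1r shares 95 exonic bases with Myl3 on the opposite strand.

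Sample titles gave the groups and the replicate numbers. Counts were analysed in R 4.3.3 with edgeR 4.0.16 (quasi-likelihood test, TMM, default filter, which left 14632 genes), two-sided, with Benjamini-Hochberg adjustment over all genes and a threshold of 0.05. CPM are counts scaled to library size after TMM, and standard errors were derived from the F statistic. Alternatives were RLE size factors, no filter, a stricter filter (1 CPM in 3 libraries), DESeq2 1.42.0, limma-voom with quality weights (limma 3.58.1), the estimated counts, limma on log2(FPKM + 1) and log2(FPKM + 0.1), the first of them also with at least 1 FPKM required in 3 libraries, a block for replicate number, and each library left out. On the log2(FPKM + 1) scale fold changes of low genes are understated. The statistics were tested on simulated counts. The members, the lists and the tests were chosen with earlier results of these data known. Named genes were the members, Pth1r, Pthlh, genes of the lists, the nearest profiles (5 for Col13a1 and 3 for each other member) and collagen genes past a threshold. Col4a4 and the list markers named were chosen after their values were seen. Adgre1 and Snorc were matched under older symbols, and Marco, Matn1, Myh3 and Myod1 were not analysed here. Promoter sequences are RefSeq's, GRCm38.p6, and all 4 members matched by symbol.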

Additional observations from a re-analysis of the deposited data

How the results depend on the processing

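The Col13a1 log2 fold change of 3.15 kept its sign in all 16 alternatives. It was 2.44 on the log2(FPKM + 1) scale, with and without the minimum FPKM, where the added 1 is close to the levels in the libraries labelled Het, and 2.64 to 3.38 with each library left out. With each library left out, Col17a1 ranged from -0.33 to 0.32, Col23a1 from -0.23 to 0.14 and Col25a1 from 0.34 to 1.33. The number of genes called was 0 in edgeR, 87 in DESeq2, 1 in limma-voom and 1 in each of the 3 FPKM fits, and 0 to 1 with each library left out. None of these single genes was a membrane-spanning collagen. Of the 44 receptor, ligand and enzyme genes, DESeq2 called 1 and the other 15 alternatives, each library left out included, called 0. With the replicate number as a block, edgeR called 0 genes and the Col13a1 value was 3.06. The main fit did not use the numbers to pair the samples. Same-numbered libraries deviated together with correlations over genes of 0.17, 0.07 and 0.07, and each library correlated best with its own number. Their FPKM per estimated count correlated at 0.976 to 0.984 across genes, as described below. Whether same-numbered libraries share a preparation or a processing step was not tested. Depth was ample for Col13a1, Col17a1 and Col23a1, with at least 104 counts in every library, while neuromuscular genes near 0 CPM could not be compared.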

Other observations

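FPKM per estimated count was taken on the log2 scale, relative to the median gene of each library and centred per gene, over 8178 genes with at least 500 counts in every library. Its correlation across genes between the libraries labelled KO and Het was 0.978 for replicate 0, 0.984 for replicate 1 and 0.976 for replicate 2, and it was -0.905 between KO replicate 0 and Het replicate 2. Genes are not independent replicates, and these values are a description. For Col13a1 the value was -0.13, -0.33 and 0.44 in KO replicates 0, 1 and 2 and -0.08, -0.34 and 0.44 in Het replicates 0, 1 and 2. In replicate 2, Col17a1 was also above its mean, at 0.35 in KO and 0.34 in Het, whereas Col25a1 was below its mean, at -0.31 in KO and -0.27 in Het. The cause was not tested.

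Gldn, which encodes gliomedin, a membrane protein with a collagenous stretch known from the nodes of peripheral nerve, was at 28.9 CPM in KO replicate 1 and 40.7 CPM in Het replicate 1, and at 3.66 to 8.26 CPM in the other 4 libraries. It was picked for this pattern after its values were seen.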
